A study of Ictidomys tridecemlineatus with 15 samples.

Results

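Horizontal cells of the embryonic retina of the 13-lined ground squirrel (*Ictidomys tridecemlineatus*), a rodent whose retina is rich in cones, were examined from embryonic day 18 (E18) to E26. They were taken as every cell that the deposited cell table annotates as a horizontal cell (HC) at E18, E21, E24 or E26. This gave 2303 cells of 19630 embryonic cells and of 53394 cells in the whole series. The time course holds 10 time points from E18 to P21 (P, postnatal day) and was made to follow retinal neurogenesis from its onset to its end. There was 1 library at E18 and 2 libraries each at E21, E24 and E26, called a and b here. All embryos were untreated, with no allele or agent in the labels, and came from captive dams with timed pregnancies. Whole retinas were dissociated and profiled by droplet single-cell RNA sequencing, in which each captured transcript is counted once by its unique molecular identifier (UMI). According to the paper, the dissected retinas were preserved by methanol fixation or by flash-freezing. Fixed cells were rehydrated, and frozen samples gave nuclei. The methods do not say which preparation each library had. HCs after birth, used for comparison, came from captive-bred litters: P4, P8a, P8b, P12a, P12b and P17 gave 19 to 192 HCs each, and P21 gave 1 HC. Neither the labels nor the methods say how many embryos or litters stand behind a library, so p-values measure the spread between libraries.

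Horizontal cells are inhibitory interneurons of the outer retina. They contact the terminals of cones and rods and feed signals back to them, which sharpens contrast and adjusts the response to background light. They are among the first neurons that the retina makes, together with ganglion cells, cones and the first amacrine cells, and they arise from a neurogenic progenitor state that can also give cone precursors. Onecut1, Onecut2, Lhx1, Prox1 and Tfap2b are transcription factors commonly used to recognise them. The deposited gene names could not be paired with the 34181 rows of the count matrix, since the list holds 30265 names without row numbers. The annotation was therefore not checked against these factors, and genes are given below by their matrix row, counted from 1. For the same reason no function can be stated for a row.

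The libraries held 1566 to 5522 cells before birth, with a median of 5230.5 to 11868 UMIs per cell by library. After birth the median was 1548 to 4175 UMIs per cell, so stage and depth run together. The summed HC counts ranged from 118668 UMIs (E18, 25 cells) to 3172199 UMIs (E26a, 818 cells) before birth and from 39032 UMIs (P8b, 19 cells) to 763366 UMIs (P17, 192 cells) after birth. The E18 sum stood apart from the others, with a Pearson r of log2 CPM of 0.75 to 0.81 to the other 6 embryonic libraries, against 0.94 (E21), 0.96 (E24) and 0.97 (E26) between the libraries of a time point. It was also the smallest sum. No pair of libraries agreed within sampling noise: chi-square per degree of freedom was 2.28 to 9.22 in every pair. Of 19573 embryonic cell barcodes, 56 were found in more than 1 embryonic library, and 10 HCs carried such a barcode. No barcode was an HC in more than 1 library.

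Horizontal cells were rare at E18 and were the third largest annotated class in both E26 libraries. At E18, 25 of 5522 cells were HCs, a share of 0.453% (95% Wilson interval 0.307% to 0.668%). The share was 7.17% in E21a and 10.1% in E21b. It was 15.4% in E24a and 14.5% in E24b, and 21.01% in E26a and 21.8% in E26b. The time points followed each other without overlap, and the 2 libraries of a time point differed by less than any step between time points. Over the 7 libraries the share rose with embryonic day (Spearman's rho 0.97, exact two-sided permutation p = 0.00317, adjusted p = 0.00476; Pearson's r 0.99, exact permutation p = 0.00159, adjusted p = 0.00238). Adjustment was by Benjamini-Hochberg over the 6 relations with age computed for these cells. Leaving out E18 and E21a, the libraries farthest from the median age (E21b is as far as E21a), r was 0.97. Intervals cover counting error only. The labels give no sequencing batch, so no relation could be recomputed within one.

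A share of all cells also depends on the other classes, and the share of early primary progenitors (RPCs), the dividing cells of the embryonic retina, lay between 26.1% and 70.5% across these libraries. HCs were therefore also set against single classes. As a share of postmitotic neurons (HCs, retinal ganglion cells, photoreceptor precursors and amacrine cells), they rose from 2.19% at E18 to 17.1% and 20.8% at E21, 30.3% and 24.4% at E24, and 34.5% in both libraries at E26. The relation had the same rho of 0.97 (exact permutation p = 0.00317, adjusted p = 0.00476). Here the 2 libraries at E24 differed by more than E24b and E21b did.

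Retinal ganglion cells (RGCs), the output neurons of the retina, are the other large class of early-born neurons. HCs per RGC rose from 0.0223 at E18 to 0.212 and 0.272 at E21, 0.600 and 0.352 at E24, and 0.684 and 0.679 at E26. The log2 ratio rose with embryonic day (rho 0.97, exact permutation p = 0.00317, adjusted p = 0.00476; r 0.91). The E24 libraries differed more than the E21 or the E26 libraries did.

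Early neurogenic progenitors are the class about to form neurons. HCs per early neurogenic progenitor rose from 0.0517 at E18 to 0.688 and 1.0 at E21, 1.83 and 1.88 at E24, and 1.93 and 3.78 at E26 (rho 0.97, exact permutation p = 0.00317, adjusted p = 0.00476; r 0.91). E26a lay next to the E24 libraries, so that the last step rested on E26b. For photoreceptor precursors, the future cones and rods, the relation did not pass: there were 7.33 and 7.18 HCs per precursor at E21, 1.59 and 3.99 at E24, and 3.27 and 2.37 at E26 (rho −0.72 over 6 libraries, exact permutation p = 0.178, adjusted p = 0.213; r −0.76, exact permutation p = 0.0889, adjusted p = 0.107). At E18 no cell was annotated as a photoreceptor precursor.

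In the 7 libraries after birth that were compared, which leave out P1, the HC share was lower than in every library from E21 to E26, from 0.0198% (P21, 1 of 5057 cells) to 3.64% (P17). The ratio to RGCs did not fall in the same way: it was 0.566 at P4, 0.552 and 0.103 at P8, 0.595 and 0.350 at P12, 0.703 at P17 and 0.00474 at P21. Only P8b and P21 lay below the E21 libraries, and P17 was the highest of these libraries.

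**Figure D1:**
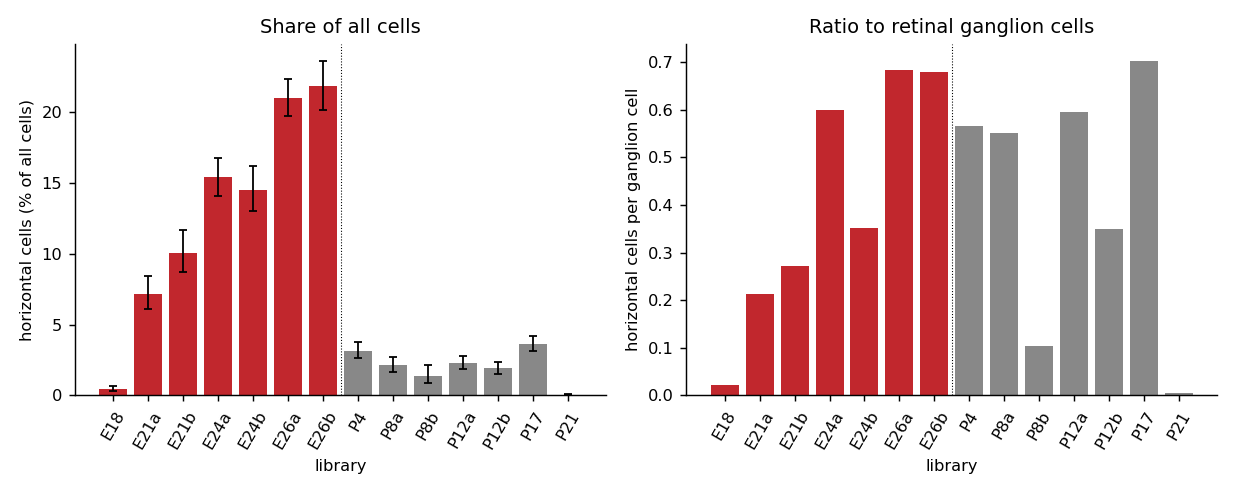
Horizontal cells in 14 libraries as a percentage of all cells (left, bars with 95% Wilson intervals) and per retinal ganglion cell (right, no interval); red bars are libraries before birth, grey bars after birth. The share climbs from 0.453% at E18 to 21.8% in E26b and is at most 3.64% in the plotted libraries after birth, which leave out P1, while their ratio spans 0.00474 to 0.703.

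HCs had fewer UMIs per cell than most classes beside them. Their median was 4267 UMIs at E18, 5495.5 and 6986 UMIs at E21, 4231 and 6122 UMIs at E24, and 3511 and 5049 UMIs at E26. A relation to embryonic day did not pass over the 7 libraries (rho −0.39, exact permutation p = 0.413, adjusted p = 0.413). Within a library the HC median was 0.465 times that of RGCs (geometric mean over libraries, range 0.403 to 0.563), lower in 7 of 7 libraries. It was 0.593 times that of early RPCs (0.532 to 0.705) and 0.735 times that of early neurogenic progenitors (0.697 to 0.779), again lower in 7 of 7 libraries. Each of these 3 differences gave p = 0.0156 when the signs of the log2 ratios were permuted exactly (two-sided), the smallest that 7 libraries allow (adjusted p = 0.0208 over 4 classes). Against photoreceptor precursors the ratio was 1.13 (0.926 to 1.24), higher in 5 of 6 libraries (exact permutation p = 0.0625).

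The gap to RGCs was widest at E26, where the ratio was 0.404 and 0.403, and narrowest at E18, where it was 0.563. The number of detected genes did not differ in the same measure once each cell was thinned to 2000 UMIs. Thinned HCs had medians of 1003.5 to 1133 genes, and RGCs 1125 to 1194 genes. In E26a, 45 of 818 HCs were too shallow to be thinned, and in the other libraries 0 to 8. Pooled over the embryonic libraries, the top 10 rows of each class held 16.4% of UMIs in HCs and 14.0% in photoreceptor precursors. They held 12.5% in RGCs, 9.36% in early neurogenic progenitors and 9.32% in early RPCs. The top 100 rows held 40.5% in HCs, 39.7% in photoreceptor precursors, 37.1% in both progenitor classes and 32.2% in RGCs. These shares were not computed by library.

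**Figure D2:**
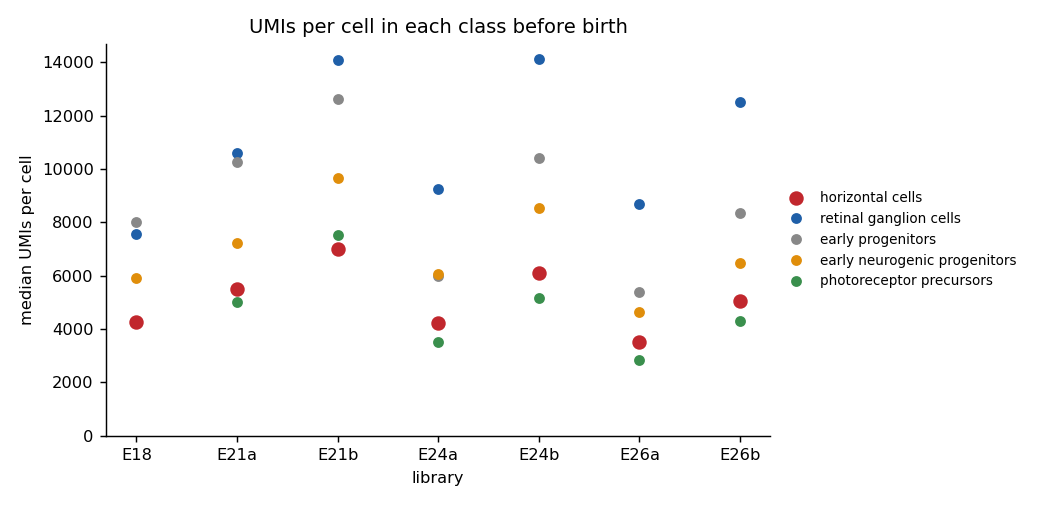
Median UMIs per cell (linear axis from 0) of 5 classes in the 7 embryonic libraries, 1 point per class and library. Horizontal cells (large red points, 3511 to 6986 UMIs) lie below ganglion cells and both progenitor classes in every library and near photoreceptor precursors.

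Single HCs resembled their own class more than the other classes compared. These were RGCs, early RPCs, early neurogenic progenitors and photoreceptor precursors, and amacrine cells were left out. Each cell was compared with the mean profile of these classes and of HCs in the other libraries, over 9098 rows. Of 2303 HCs, 2265 (98.4%) correlated best with HCs. Of the remaining 38, 29 were nearest to early neurogenic progenitors, 8 to photoreceptor precursors and 1 to early RPCs. None was nearest to RGCs, and no bound is drawn from this because cells of a library are not independent. For the cells nearest to HCs, pooled over libraries, the second nearest class was photoreceptor precursors in 70.8%, RGCs in 16.4% and early neurogenic progenitors in 12.8%. The libraries differed. Photoreceptor precursors ran from 51.1% (E24a) to 85.0% (E26a) and RGCs from 0% (E18) to 24.1% (E26b). Early neurogenic progenitors ran from 1.85% (E26a) to 33.7% (E24a). The annotation came from clusters of the same cells, so these figures describe it and do not test it. By library, the cells nearest to HCs made up 92.0% (E18, 23 of 25 cells) to 100% (E21a).

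A small set of rows was high in HCs in each library from E21 to E26. Among 2952 rows with at least 50 CPM (UMIs per 1e6 UMIs of the class) in pooled HCs, 12 (0.407%) passed a second limit. In each of the 6 libraries from E21 to E26 they were at least 4-fold above every other class with at least 10 cells there. These rows were chosen for that difference, which is therefore a description without a test. The last row inside the limit had a lowest ratio of 4.49 and the first row outside one of 3.83. Their pooled HC levels ran from 51.9 to 407 CPM with a median of 126 CPM. The class next highest was RGCs for 6 rows, amacrine cells for 4 and early neurogenic progenitors for 2. Amacrine cells entered from E26a alone, where there were 108. The lowest pooled ratio, 3.96 for row 14816 against amacrine cells, lay below 4. E18 entered the pooled floor of 50 CPM but not the 4-fold limit. At E18, 10 of the 12 rows were 4-fold higher in HCs than in RGCs, early RPCs and early neurogenic progenitors, while 1 had no HC UMI. The share of all 2952 rows that were 4-fold higher at E18 was not computed, so this too is a description.

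Together these 12 rows held 0.170% to 0.289% of HC UMIs before birth, 0.223% ± 0.0435 (SD, n = 7). They held 0.0143% ± 0.00108 (SD, n = 7) of RGC UMIs and 0.00364% ± 0.000646 (SD, n = 7) of early RPC UMIs. After birth the share in HCs was 0.285% to 0.418%, 0.359% ± 0.0513 (SD, n = 6), and in RGCs 0.0147% ± 0.00381 (SD, n = 6). HC libraries before and after birth overlapped, since P4 (0.285%) lay below E21b (0.289%).

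**Figure D3:**
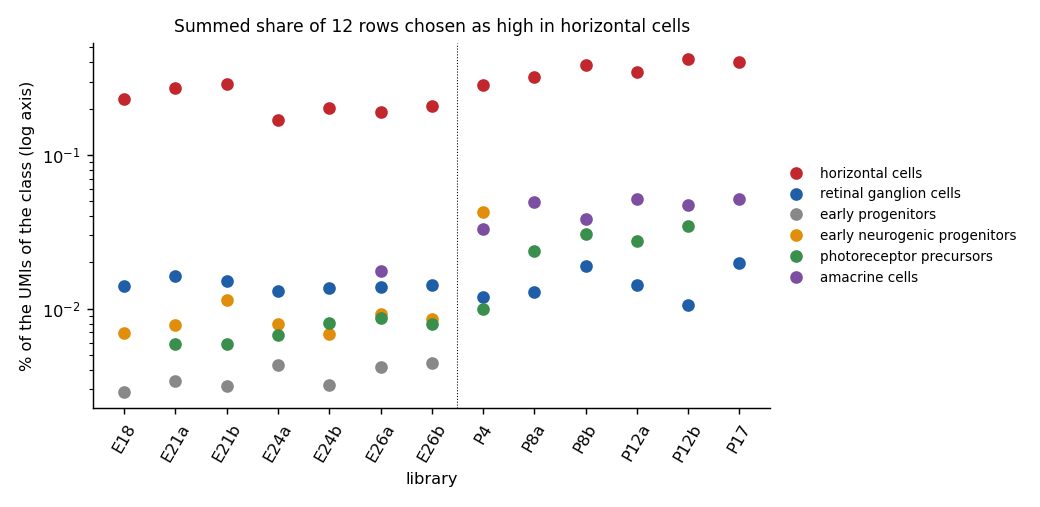
Summed share of the 12 HC-enriched rows in the UMIs of each class (log axis), 1 point per class and library with at least 10 cells; the dotted line marks birth. Horizontal cells lie between 0.170% and 0.418% and every other class at 0.0516% or below, with amacrine cells after birth the next highest.

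The row that stood out most from the other classes was row 32888. It was at 42.1 CPM at E18, 167 and 149 CPM at E21, 134 and 169 CPM at E24, and 117 and 177 CPM at E26. Its pooled level was 127.5 times that of RGCs, the next class. A UMI of it was found in 39.6% of HCs and 0.930% of RGCs, and in 22.3% and 0.194% once cells were thinned to 2000 UMIs. Its slope with embryonic day did not pass (log2 slope 0.08 per day, SE 0.0437, edgeR adjusted p = 0.394). After birth it was at 348 to 522 CPM, above all 7 embryonic libraries.

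The next in that order, row 33052, had the opposite course. It was at 876 CPM at E18, 326 and 194 CPM at E21, 187 and 207 CPM at E24, 39.4 and 124 CPM at E26, and 0 to 25.6 CPM after birth. Every HC library after birth lay below every HC library before it. Amacrine cells held row 33052 at 0.679 to 60.1 CPM after birth, and early neurogenic progenitors at 133 CPM at P4. In E18, 3 of the 25 HCs held 35.6% of its 104 UMIs. It fell with embryonic day (log2 slope −0.34 per day, SE 0.0557, edgeR adjusted p = 0.000693).

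To ask which rows changed as the HC population grew, HC counts were summed per library and tested for a slope over embryonic day with edgeR's quasi-likelihood test. Of 11690 rows tested, 583 (4.99%) passed an adjusted p of 0.05, 371 rising (3.17%) and 212 falling (1.81%). When the fitted slope was multiplied by 5 days, the span from E21 to E26, 244 rising and 149 falling rows reached 2-fold. The slope was fitted with E18 included, so this is not a measured change between E21 and E26. The 12 HC-enriched rows had been chosen on HC levels in the same libraries. Among them, 1 rose and 3 fell, a median slope of 0.05 per day against 0.00 over all rows tested. The one that rose, row 32357, went from 0 CPM at E18 to 57.5 and 58.9 CPM at E21, 89.2 and 113 CPM at E24, and 117 and 134 CPM at E26 (log2 slope 0.29, SE 0.0469, adjusted p = 0.000542). Row 10245 fell from 522.5 CPM at E18 and 438 and 916 CPM at E21 to 170 and 194 CPM at E24 and 131 and 112 CPM at E26 (log2 slope −0.35, SE 0.0553, adjusted p = 0.000407). Both rows were picked after their values were seen. The count of calls was 501 without E18, 348 without E21a, 314 without E21b and 335 without E26a.

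Among rows with a mean of at least 20 CPM and no overlap between E21 and E26, both on TMM-scaled CPM, row 11242 had one of the 2 steepest rises. In HCs it was at 8.43 CPM at E18, 6.84 and 3.48 CPM at E21, 67.8 and 38.99 CPM at E24, and 116 and 110 CPM at E26. It thus stayed low up to E21 and was high in every later library (log2 slope 0.76 per day, SE 0.0772, edgeR adjusted p = 7.49e-06). RGCs of the same libraries held more of it, 29.4 CPM at E18 and 141 to 330 CPM from E21 on. Amacrine cells held 290 CPM in E26a. The slope was steeper in HCs than in RGCs (difference 0.58 per day, adjusted p = 1.87e-13) and than in early RPCs (difference 0.86 per day, adjusted p = 6.39e-22), where it was 38.2 CPM at E18 and 12.4 to 22.8 CPM from E21 on.

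Row 26976 ran the other way. In HCs it was at 16.9 CPM at E18, 78.0 and 69.7 CPM at E21, 4.70 and 4.81 CPM at E24, and 3.47 and 2.28 CPM at E26. It peaked at E21 and was low in all later libraries (log2 slope −0.71 per day, SE 0.103, edgeR adjusted p = 0.000213). RGCs kept it between 24.7 and 61.3 CPM throughout, and the slopes differed (−0.80 per day in HCs against RGCs, adjusted p = 1.28e-15). At E21, 3 of 132 and 3 of 158 HCs held 38.6% and 40.0% of its UMIs.

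The other 2 rows with the steepest slopes rested on 1 library each. Row 25145 was at 377 CPM in E26a and at 6.10 to 25.3 CPM in the other 6 embryonic libraries. In unscaled CPM, E21a (13.7 CPM) and E26b (12.9 CPM) overlapped. RGCs (367 CPM) and early RPCs (283.5 CPM) were also far higher in E26a than in their other embryonic libraries. Its slope was 1.16 per day with all libraries (adjusted p = 0.00668) and 0.05 without E26a (adjusted p = 0.910). Row 3366 was at 1310 CPM in E21a and at 6.41 to 9.92 CPM in the other 6, with 767.5 CPM in RGCs and 1039 CPM in early RPCs of E21a. Its slope was −1.04 per day (adjusted p = 0.0155) and −0.03 without E21a (adjusted p = 0.951). Of the 583 slope calls, 15 had over 50% of their summed CPM in 1 library, 8 of them in E18, as did 35 of the 11690 rows tested.

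Of the steps between neighbouring time points, the one from E18, with 1 library, was not tested. Between E21 and E24, 192 of 12870 rows (1.49%) passed, 106 higher (0.824%) and 86 lower (0.668%) at E24. Between E24 and E26, 12 rows (0.0932%) passed, 5 higher (0.0389%) and 7 lower (0.0544%) at E26, and 708 had an unadjusted p under 0.05. The difference between the counts was not itself tested. Of the 12 HC-enriched rows, 1 was higher and 2 were lower at E24 than at E21, and none was called between E24 and E26. The choice of these rows rested on HC levels in the same libraries. Counts for the first step fell to 61 without E21a, 39 without E21b and 62 without E24a. Those for the second were 2 without E21a or without E21b, 28 without E24a and 7 without E24b.

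Row 11242 again led the rises from E21 to E24 (log2 change 3.66, SE 0.436, edgeR adjusted p = 0.00034), followed by row 11458. Row 11458 was at 16.9 CPM at E18, 5.48 and 10.5 CPM at E21, 50.6 and 70.5 CPM at E24, and 73.5 and 60.5 CPM at E26 (log2 change 3.01, SE 0.322, adjusted p = 0.000103). RGCs stayed at 1.76 to 4.33 CPM before birth, while early RPCs held 28.03 to 50.2 CPM. At E24, 3 cells held 34.0% of its HC UMIs in E24a and 3 held 34.9% in E24b. Row 26976 fell by 3.73 in log2 terms (SE 0.311, adjusted p = 6.3e-06).

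Row 9558 also fell by 4.43 from E21 to E24 in log2 terms (SE 0.850, adjusted p = 0.0121). It was at 50.6 and 56.6 CPM at E21, 1.57 and 2.67 CPM at E24, and 1.26 and 27.8 CPM at E26. RGCs were likewise highest at E21, with 47.9 and 57.8 CPM at E21, 1.24 and 3.68 CPM at E24, and 1.499 and 18.6 CPM at E26. The call was lost with the DESeq2 test and without E21a, E21b or E24a (adjusted p = 0.153, 0.0796, 0.160 and 0.0610).

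From E24 to E26, row 32077 rose from 9.39 and 9.08 CPM to 52.6 and 73.8 CPM (log2 change 2.73, SE 0.256, edgeR adjusted p = 7.5e-05). It also went from 3.18 and 4.72 CPM to 20.8 and 28.8 CPM in RGCs. Row 15011 was at 2.61 and 4.81 CPM at E24 and 28.7 and 26.2 CPM at E26 (log2 change 2.86, SE 0.376, adjusted p = 0.00464), and at 29.6 to 54.8 CPM at E21, so that E24 was the low point. RGCs had the same low point, 3.31 and 1.12 CPM at E24 against 35.5 and 31.3 CPM at E26. Rows 6847 and 26238 fell by 2.11 and 1.66 on the log2 scale (adjusted p = 0.0350 and 0.0436). Both calls were lost under DESeq2 (adjusted p = 0.444 and 1.0) and in most fits that left out 1 library.

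The slopes of HCs were then tested against those of RGCs and of early RPCs of the same libraries, with the library as a block. Against RGCs, 1166 of 15964 rows (7.30%) had a different slope, 875 with the higher slope in HCs (5.48%) and 291 with the lower one (1.82%). The size of this split depended on scaling: with DESeq2 size factors it was 591 to 390. Without E21b the count was 708. Of the 12 HC-enriched rows, 2 had a higher and 1 a lower slope than in RGCs; these rows had been chosen on HC against RGC levels in the same libraries. Against early RPCs, 947 of 16115 rows (5.88%) differed, 543 higher (3.37%) and 404 lower (2.51%), and of the HC-enriched rows none was higher and 4 were lower. The choice of the HC-enriched rows also rested on HC against early RPC levels in these libraries.

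Row 25736 had the higher slope in HCs and approached the RGC level by E26. It had no UMI in HCs at E18, where 1 UMI is worth 8.43 CPM. In HCs it was at 10.95 and 9.58 CPM at E21, 47.5 and 32.6 CPM at E24, and 72.5 and 72.3 CPM at E26. RGCs had 45.2 CPM at E18 and 79.0 to 133 CPM later. In E26a the 2 classes were close, with 72.5 CPM in HCs and 79.0 CPM in RGCs, but in E26b RGCs were at 109 CPM against 72.3 CPM. The slopes differed by 0.62 per day (SE 0.0533, edgeR adjusted p = 1.52e-15). Amacrine cells held more of row 25736, 197 CPM in E26a and 106 to 263 CPM after birth.

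Row 18238 had no UMI in HCs at E18, where 1 UMI is worth 8.43 CPM, so E18 and E21 cannot be told apart. It rose in HCs from 10.95 and 16.5 CPM at E21 to 33.4 and 19.8 CPM at E24, and 54.9 and 37.7 CPM at E26. RGCs stayed at 1.13 to 7.31 CPM. The slopes differed by 0.64 per day (SE 0.0783, adjusted p = 1.24e-09), and after birth no HC library held a UMI of it. Amacrine cells held row 18238 at 8.24 to 21.6 CPM after birth.

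Row 25660 crossed between the classes. In HCs it was at 244 CPM at E18, 649 and 505 CPM at E21, 85.1 and 285 CPM at E24, and 60.8 and 69.2 CPM at E26. In RGCs it was at 15.8 CPM at E18, 43.9 and 34.3 CPM at E21, and 111 to 152 CPM from E24 on. HCs were higher in every library up to E21 and in E24b, and lower in the other 3 (difference in slope −0.82 per day, SE 0.0475, edgeR adjusted p = 7.89e-24). In E18, 3 of 25 HCs held 82.8% of its 29 UMIs.

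**Figure D4:**
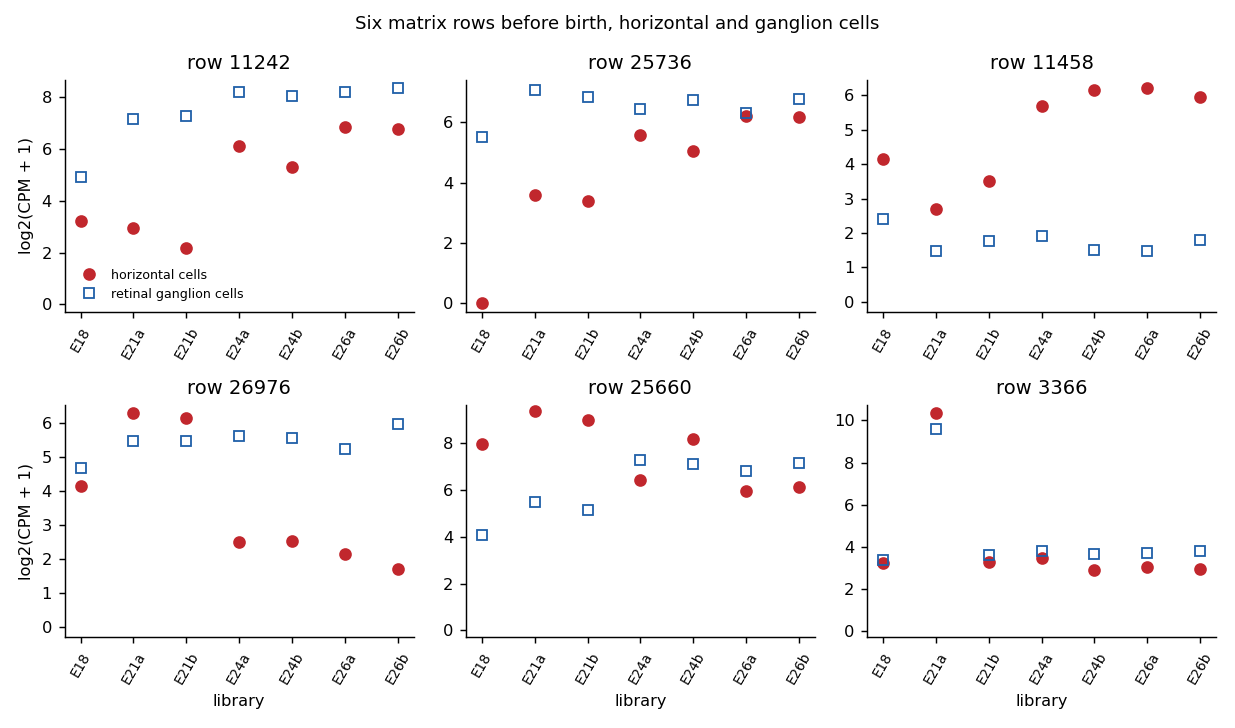
Levels of 6 matrix rows in horizontal cells (filled) and ganglion cells (open) of the 7 embryonic libraries, as log2(CPM + 1). Rows 11242, 25736 and 11458 climb in horizontal cells after E21, row 26976 falls from 78.0 to 2.28 CPM, row 25660 crosses the ganglion cell level, and row 3366 is high in E21a alone, in both classes.

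HCs before birth were then compared with HCs after birth, 7 libraries against 6. Of 7841 rows, 3209 (40.9%) differed, 1622 higher (20.7%) and 1587 lower (20.2%) after birth, and 795 and 833 of them by at least 2-fold. Depth, age and library set change together with birth here, so that the effect of each cannot be told apart. With all sums thinned to the smallest, 596 rows were tested and 228 were called. Among the 12 HC-enriched rows, 8 were higher after birth (log2 changes 0.72 to 1.44) and 4 lower, a median of 0.88 against −0.03 over all rows. Of the 4, 3 were at 0 to 25.6 CPM after birth and the fourth at 0 to 23.8 CPM. The embryonic levels on which they were chosen are part of this comparison.

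The largest rises without overlap started from almost nothing. Row 21018 had 7 UMIs in all embryonic HCs, at most 1.57 CPM in a library, and was at 45.6 to 136 CPM after birth (log2 change 6.82, SE 0.412, edgeR adjusted p = 6.33e-11). RGCs rose alongside, from at most 1.15 CPM to 13.8 to 57.7 CPM, and the difference between the classes did not pass (adjusted p = 0.460). Photoreceptor precursors held more of it than HCs, 26.3 to 94.3 CPM from E24 to E26 and 368 to 1499 CPM after birth, and amacrine cells held 52.8 to 132 CPM after birth. Row 5286 had 26 embryonic UMIs, none before E24, 1.57 and 1.07 CPM at E24, and 3.47 and 3.81 CPM at E26. After birth it was at 133 to 448 CPM (log2 change 6.70, SE 0.362, adjusted p = 2.46e-11). In RGCs it rose to 10.6 to 31.5 CPM, and the rise in HCs was larger (difference 1.90, adjusted p = 0.00141).

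Of the rows that were lost, row 17801 and row 22250 had no UMI in any HC after birth. Row 22250 was at 194 CPM at E18, 112 and 194 CPM at E21, 67.3 and 94.0 CPM at E24, and 45.4 and 64.7 CPM at E26. Its 947 UMIs among 11586942 embryonic HC UMIs, against 0 of 1784457 after birth, put it at least 48.6-fold lower after birth, taking 3 counts over the group as the floor (edgeR's adjusted p = 1.13e-06). Early RPCs held it at 31.8 to 147 CPM, and RGCs at 0.967 to 4.91 CPM. It was thus shared with progenitors and nearly missing from RGCs. After birth, early neurogenic progenitors held row 22250 at 66.3 CPM at P4. Amacrine cells held 10.7 CPM at P4 and at most 1.12 CPM later, and photoreceptor precursors at most 2.27 CPM. RGCs had no UMI of row 17801 or row 22250 after birth. For neither row was the effect of birth called different between HCs and RGCs.

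Row 17801 varied between libraries more than between classes. In HCs it was at 244 CPM at E18, 293 and 882 CPM at E21, 1094 and 345 CPM at E24, and 14.5 and 1929 CPM at E26, and at least 468-fold lower after birth (3 counts over the group as the floor, adjusted p = 2.62e-05). Without E26b this bound was 268.5-fold. RGCs and early RPCs were also lowest in E26a, at 5.64 and 7.14 CPM, and without a UMI in RGCs after birth. In E26b, 3 HCs of 469 held 3815 of its 5071 UMIs (75.2%), and without them HCs held 2.69 UMIs per cell.

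The effect of birth differed between HCs and RGCs in 2476 of 14219 rows (17.4%), 1175 with the higher (8.26%) and 1301 with the lower change (9.15%) in HCs. Without P17 the count was 1545. Of the HC-enriched rows, 5 had the higher and 4 the lower change in HCs. The embryonic HC and RGC levels on which these rows were chosen are part of this comparison. Row 30183 was absent from HCs up to E24, at 0.946 and 1.52 CPM at E26, and at 9.53 to 176 CPM after birth, while RGCs stayed at 3.12 to 16.8 CPM throughout (difference 6.70, SE 0.472, edgeR adjusted p = 4.33e-13). Row 31170 was at no more than 2.21 CPM before birth and at 4.77 CPM at P4, 39.05 and 25.6 CPM at P8, 132 and 138.5 CPM at P12, and 107 CPM at P17. RGCs had 5.32 to 29.4 CPM over all libraries (difference 6.05, SE 0.334, adjusted p = 7.38e-16).

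In the other direction, row 32094 was at 94.4 to 183 CPM in all 7 embryonic HC libraries and at 0 CPM in 5 of 6 libraries after birth, with 1 UMI in P17. The pooled level was 207 times higher before birth (95% exact counting interval 37.1 to 8181). RGCs never exceeded 4.26 CPM (fitted difference −8.79, SE 1.42, edgeR adjusted p = 1.67e-05), where the fitted value depends on the prior count because 5 libraries were at 0. A UMI was found in 30.3% of embryonic HCs and in 0.491% of embryonic RGCs. Amacrine cells held row 32094 at 28.5 CPM in E26a and at 3.05 to 53.4 CPM after birth, and early neurogenic progenitors at 79.5 CPM at P4. Row 31159 was at 219 CPM at E18, 346 and 339 CPM at E21, 101 and 170 CPM at E24, and 114 and 109 CPM at E26. It was at 0 to 25.6 CPM after birth (difference to RGCs −7.37, SE 0.635, adjusted p = 5.76e-11), and 39.8% of embryonic HCs but 0.684% of embryonic RGCs held a UMI. Other classes kept row 31159 after birth. Amacrine cells held 44.1 CPM in E26a and 83.9 to 228 CPM in the libraries after birth, and early neurogenic progenitors held 292 CPM at P4.

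**Figure D5:**
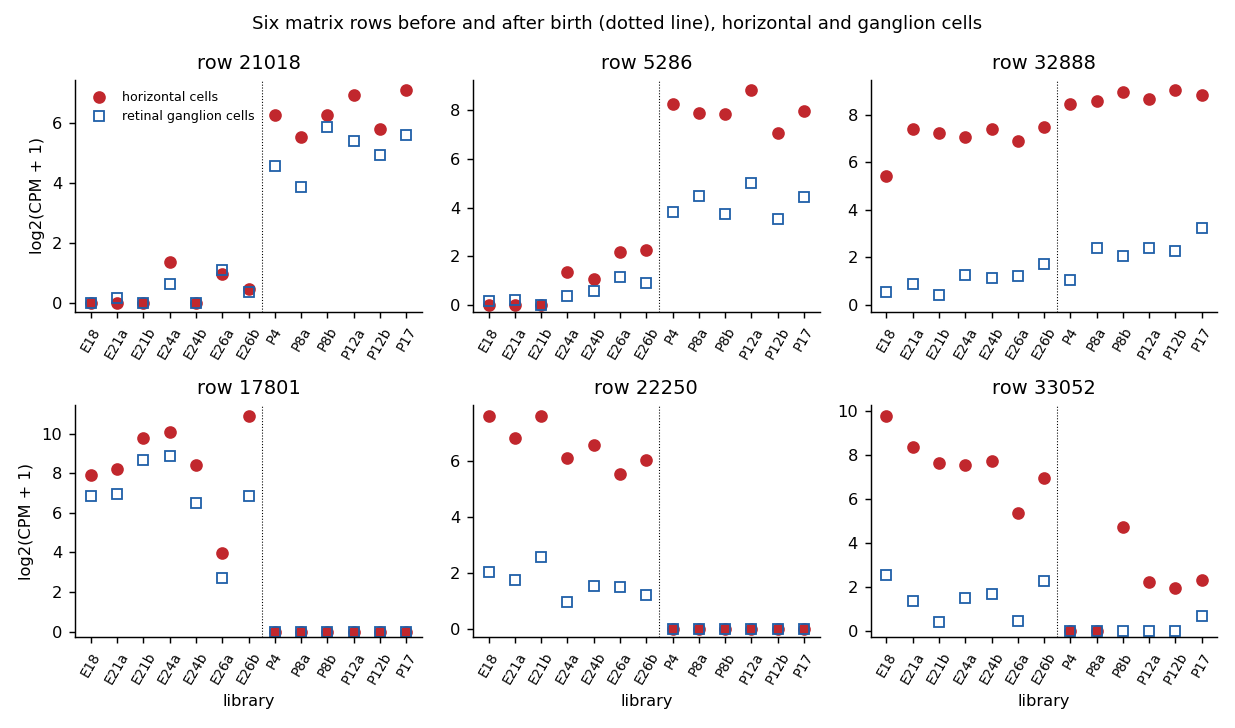
Levels of 6 matrix rows in horizontal cells (filled) and ganglion cells (open) of the 13 libraries with at least 10 horizontal cells, as log2(CPM + 1), with birth at the dotted line. Rows 21018 and 5286 are higher after birth in both classes, row 32888 is high in horizontal cells at both stages, rows 17801 and 22250 have no UMI after birth in either class, and row 33052 falls from 876 CPM at E18 to at most 25.6 CPM after birth.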

How the data were processed

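Single-cell libraries (10x 3′ chemistry) were processed by the authors with Cell Ranger 3.1.0 on the HiC_Itri_2 assembly, aggregated, and annotated in Seurat 4.0.4 by marker genes of clusters. Filters on cells and treatment of doublets were not given in the sources used here, and no doublets were removed here. The values used are the UMI counts per gene row and cell that the authors deposited, whole and not normalized, with the deposited cell table. Labels place 15 samples at 10 time points, and a library is a time point and a suffix of the cell names. P1 had 2 suffixes and 1 sample, so its 6920 cells entered no comparison.

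UMIs were summed per library and class (at least 10 cells) and tested with edgeR 4.0.16 in R 4.3.3 (filterByExpr, TMM, quasi-likelihood test, Benjamini-Hochberg, adjusted p under 0.05). Between classes, the library was a block. SE is the log2 change divided by the square root of F. CPM are per 1e6 UMIs of the sum, without TMM. The study tested single cells. Sums per library were used because cells are not replicates. The fits were tested on simulated data. Shares, ratios and UMIs per cell were tested by exact permutation (Python 3.11.15, SciPy 1.17.1).

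Named rows passed the test, had a mean of at least 20 CPM in HCs and no overlap between the end groups, both on TMM-scaled CPM, and had the largest changes, 2 per direction. The 2 HC-enriched rows with the highest pooled ratio were also named. The members, lists and tests were chosen with earlier results of these data known. Alternatives were DESeq2 1.42.0 (size factors and test), no filter on low counts, thinned sums, a minimum of 50 cells, removal of cells above 2 times the median UMIs of their library and class, and each library left out.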

Additional observations from a re-analysis of the deposited data

Results flagged for a closer look

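Horizontal cells at P1 lay outside every comparison, because the 2 P1 suffixes could not be tied to the 1 P1 sample. Together they held 449 HCs among 6920 cells (6.49%). The suffixes gave 6.31% (95% Wilson interval 5.51% to 7.20%) and 6.65% (5.89% to 7.49%), between the shares at E26 and P4, with 0.371 and 0.277 HCs per RGC.

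A sample far from the others of its stage was found in 3 of 28 groups examined. The limit used gives about 1 in 20 by chance for normally spread values. Shares that change with age and levels made of single UMIs are not so spread, so that rate does not apply here. Row 33052 was at 876 CPM in the E18 library, whose sum of 118668 UMIs is the smallest before birth. After birth it was at 25.6 CPM in P8b, a level that 1 UMI gives in its sum of 39032 UMIs. Row 32094 was at 1.31 CPM in P17, also 1 UMI.

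Differences between classes were found by the interaction tests. The slope with embryonic day differed between HCs and RGCs in 1166 rows and between HCs and early RPCs in 947 rows, and the effect of birth differed between HCs and RGCs in 2476 rows. The named rows among them differed in slope by 0.64 (row 18238), 0.62 (row 25736), −0.82 (row 25660) and −0.80 (row 26976) per day. In the effect of birth they differed by 6.70 (row 30183), 6.05 (row 31170), −8.79 (row 32094) and −7.37 (row 31159) on the log2 scale.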

How the results depend on the processing

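The relations of the HC share and of the HC to RGC ratio with embryonic day kept their direction and stayed past the threshold under every alternative, with rho of 0.956 to 0.971 when 1 library was left out. So did the lower UMI count of HCs against RGCs (log2 ratio −1.15 to −1.07 with 1 library left out), early RPCs (−0.797 to −0.729) and early neurogenic progenitors (−0.458 to −0.43). Against photoreceptor precursors it was 0.153 to 0.237. Counts of calls with 1 library left out were 314 to 647 for the slope, 39 to 268 for E24 against E21, 2 to 28 for E26 against E24, 708 to 1336 for the slope against RGCs, 708 to 1114 against early RPCs, 2482 to 3374 for birth and 1545 to 2524 for birth against RGCs. Leaving out libraries was added after seeing the data for the 2 steps between time points and for birth against RGCs. Thinned sums gave 102 slope calls and 228 birth calls, from fewer rows and UMIs. Without a filter on low counts, which tests more rows, there were 464, 90 and 4985 calls for the first step, the second step and birth. The DESeq2 test gave 69 and 3 calls for the steps and 511 for the slope against RGCs. The cause was not tested. For named rows, 314 of 337 alternatives kept the call, 23 lost it and none reversed it. Alternatives in which a row was not tested are left out of these counts, as for the slope of row 26976 without E18. For the slopes and for birth, the same fit without E18 was counted under several settings. For row 25145 it gave a log2 slope of 1.32 per day each time. The counts are therefore not a rate over separate fits. No paired analysis was possible because the cell names carry no replicate numbers that pair libraries of different time points; classes of the same library were compared within it. The bound for row 17801 after birth, also added later, was 268.5-fold to 641-fold with 1 embryonic library left out. Depth limits the E18 sum, where 1 UMI is worth 8.43 CPM, and P8b, where it is worth 25.6 CPM.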
